A study of Homo sapiens with 21 samples.

Results

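Described here are 6 circular RNAs (circRNAs), of 124082 in the deposited table, that were chosen by their low read counts in NCI-H1975 lung cancer cells transfected with FASN relative to the same line transfected with the plasmid pCMV6. They are hsa_circ_11450, hsa_circ_19078, hsa_circ_8001, hsa_circ_13756, hsa_circ_9202 and hsa_circ_3447. A second step of the choice separated those also low against NCI-H1975 cells with neither a plasmid nor a resistance code, here called plain NCI-H1975 cells, from those that were only high in pCMV6 cells. Differences among FASN, pCMV6 and plain NCI-H1975 cells therefore made the choice and are given as a description with no test. All 6 passed the filter on low counts. The choice drew on the 11 circRNAs (0.12% of 9175 tested) that edgeR's quasi-likelihood test called lower in FASN than in pCMV6 cells at an adjusted p under 0.05. All 6 were among them by the choice, so these calls carry no support.

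A circRNA forms when the end of an exon is spliced back to the start of the same or an earlier exon, which closes the RNA into a ring with no free ends. Rings escape the exonucleases that degrade linear RNA and can therefore build up in cells, and many are made from exons of protein-coding genes. FASN encodes fatty acid synthase, which builds palmitate from acetyl-CoA and malonyl-CoA, and pCMV6 is an expression plasmid that served as the transfection control. The identifiers are numbers of the table itself, without a host gene, coordinate or sequence, so the role of each circRNA is not given here and none of its sequence is shown.

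The study counted reads per circRNA in 21 libraries from 3 human lung lines, in 7 groups of 3 libraries. NL20 is an immortalized bronchial epithelial line that forms no tumours, and the cancer lines PC-9 and NCI-H1975 carry mutant EGFR. PC-9 was sequenced without a drug and in a gefitinib-resistant form treated with 1 µM of that EGFR inhibitor. NCI-H1975 was sequenced plain, in an osimertinib-resistant form treated with 1 µM of that later EGFR inhibitor, and with pCMV6 or FASN. Both transfected groups received G418, the selection agent, at 50 µg/ml, so a difference between them does not include the agent, whereas one from plain NCI-H1975 cells does. No label tells if replicates were grown as separate cultures, or if a transfected or resistant line is a single clone. The p-values therefore rest on a spread between libraries of a group that may be technical. For 99.7% of circRNAs that spread came almost wholly from a trend shared across circRNAs. It is thus not the spread of 1 circRNA in the libraries compared. The table names no genes, so the identity of the lines and the level of FASN itself were not analysed here. In bulk libraries, fewer cells with a circRNA and less of it per cell cannot be told apart.

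Libraries held 95808 to 203079 reads, and the 6 circRNAs together took 0.209% to 0.594% of the reads of a library. Levels are given as CPM, which is reads per 1000000 reads in the tested circRNAs after TMM scaling, on which scale 1 read was worth 6.98 to 13.0 CPM. Osimertinib-resistant replicate 2 stood apart from the others of its group. Its chi-square against them, divided by the degrees of freedom, was 4.80 and 4.37, and every other pair within a group gave 2.07 to 2.68. The more abundant were 4 of the circRNAs, with hsa_circ_3447 at rank 27 of the table by reads (3781 reads), hsa_circ_9202 at rank 66, hsa_circ_13756 at rank 132 and hsa_circ_8001 at rank 135. The other two, hsa_circ_11450 (335 reads) and hsa_circ_19078 (288 reads), ranked 1259 and 1479, so each of their libraries rested on few reads.

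The split put 3 of the 6 in each class. A circRNA counted as low against both groups when its mean CPM in FASN cells was at or under 0.5 of the mean in pCMV6 cells and of the mean in plain NCI-H1975 cells. hsa_circ_11450, hsa_circ_19078 and hsa_circ_8001 met this, as did 11.1% of all circRNAs tested. hsa_circ_13756 and hsa_circ_9202 met it against pCMV6 cells, at 0.355 and 0.418, but not against plain cells, at 1.08 and 1.04. hsa_circ_3447 met it against neither, at 0.563 of pCMV6 and 0.869 of plain cells. Nearest the threshold was hsa_circ_8001, just inside at 0.472 of plain cells. The ratio of hsa_circ_3447 to pCMV6 cells, 0.563, was near it too. At 0.869 of plain cells that circRNA would keep its class on either side of it. Requiring instead that all 3 FASN libraries lie below all 3 of both other groups gave the same 3 circRNAs. Without plain NCI-H1975 replicate 1 the ratio of hsa_circ_8001 was 0.503, which moved it across the threshold and left 2. Of the 5 other circRNAs called lower with FASN than with pCMV6, 2 also had means at or under 0.5 of both groups, and the ratio of FASN to plain cells over the 5 ran from 0.397 to 1.09.

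**Figure D1:**
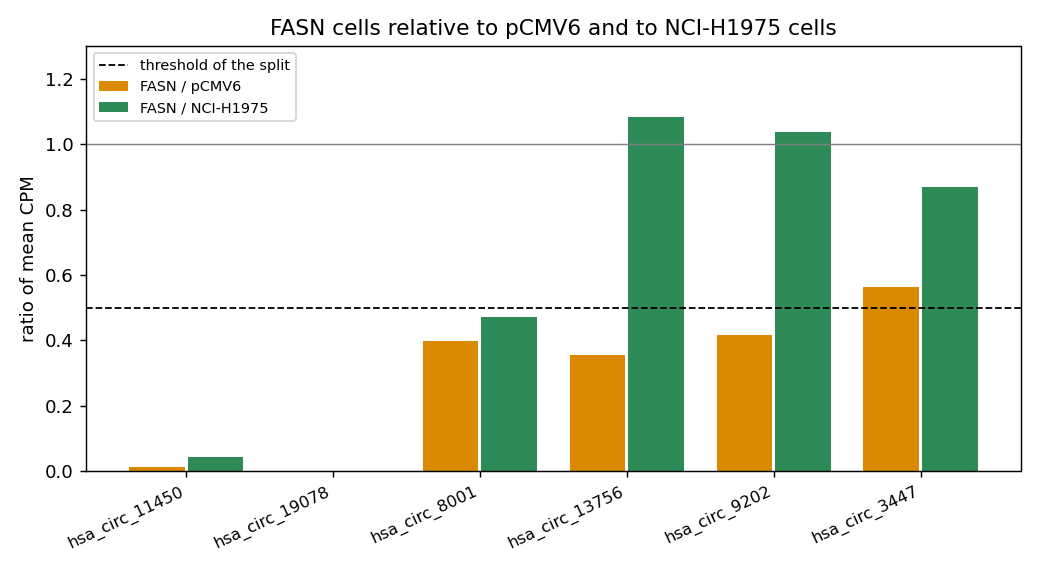
Mean CPM in FASN cells divided by the mean in pCMV6 cells (orange bars) and in plain NCI-H1975 cells (green bars), for each of the 6 circRNAs, with the threshold of 0.5 as a dashed line; hsa_circ_19078 had no read in FASN cells, so both its bars are at 0. The 3 circRNAs on the left have both bars under the line, while the green bars of the 3 on the right stand between 0.869 and 1.08.

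hsa_circ_11450 was nearly missing from FASN cells. It had 0, 0 and 1 read in the FASN libraries, 27, 18 and 24 in the pCMV6 libraries and 15, 6 and 10 in the plain NCI-H1975 libraries. The single FASN read came from replicate 3, and every FASN library lay below every library of both other groups. In CPM the level was 4.11 ± 7.12 with FASN (mean ± SD, n = 3), 283 ± 44.5 with pCMV6 and 92.7 ± 46.5 in plain cells. The ratio of summed scaled reads was 77.6 for pCMV6 over FASN cells, with a 95% exact conditional interval of 13.5 to 3110 that covers counting error only. For plain over FASN cells it was 24.9 (4.15 to 1015). Without FASN replicate 3 no read was left. With that 0 set to a floor of 3 counts, the level was 18.2-fold lower than with pCMV6 and 5.84-fold lower than in plain cells. These folds take the reads of the other group as exact and are not limits of an interval. The pCMV6 cells also held more than the plain cells, by 1.61 ± 0.50 (SE) on the log2 scale, so this circRNA was high with pCMV6 and low with FASN at once.

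hsa_circ_19078 was not read in FASN cells, and its levels in the other NCI-H1975 groups were themselves low and uneven. The 3 FASN libraries had 0 reads, which allows a level of up to 11.0 CPM over the group. The pCMV6 libraries had 12, 4 and 1 reads, or 136, 51.5 and 13.0 CPM, and the plain NCI-H1975 libraries had 1, 4 and 9 reads, or 9.60, 35.7 and 72.6 CPM. In each of those groups 1 library held a single read, and that read alone keeps it from overlapping with FASN cells. With the 0 set to a floor of 3 counts over the group, FASN cells were 6.38-fold lower than pCMV6 and 3.75-fold lower than plain cells. These floor folds take the reads of the other group as exact. A 95% exact conditional interval, for counting error in both groups, started at 4.64 for pCMV6 over FASN cells and 2.66 for plain over FASN. Without pCMV6 replicate 1, which held 12 of the 17 reads, the first floor fold was 2.95, and without plain replicate 3 the second was 2.11. Without FASN replicate 2, the deepest of its group, the floor folds were 3.78 and 2.22.

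hsa_circ_8001 was the only one of the 3 with reads in every library. The FASN libraries stood at 247, 261 and 222 CPM, the pCMV6 libraries at 532, 490 and 807, and the plain NCI-H1975 libraries at 595, 508 and 444. All 3 FASN libraries were below all 6 of the others, and pCMV6 and plain libraries overlapped. The log2 difference was -1.31 ± 0.27 (SE) for FASN minus pCMV6 and -1.07 ± 0.27 for FASN minus plain cells, on 67 reads in FASN cells. For pCMV6 minus plain cells it was 0.24 ± 0.25. FASN cells were the lowest of the 7 groups for this circRNA and for hsa_circ_19078, and for hsa_circ_11450 only NL20, with no read at all, stood lower.

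Of the circRNAs that were only high in pCMV6 cells, hsa_circ_13756 had the largest excess. Its pCMV6 libraries stood at 2002, 1533 and 1912 CPM, its FASN libraries at 666, 441 and 826, and its plain NCI-H1975 libraries at 691, 642 and 452. Every pCMV6 library was above those of both other groups, and FASN and plain libraries were interleaved. The log2 difference of FASN minus pCMV6 cells was -1.51 ± 0.23 (SE), that of pCMV6 minus plain cells 1.61 ± 0.23 and that of FASN minus plain cells 0.11 ± 0.24. The last was negative in 2 of 13 alternative analyses. On summed reads the ratio of FASN to plain cells was 1.06, with a 95% interval of 0.858 to 1.31 for counting error.

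hsa_circ_9202 had the same order of pCMV6 over the other groups, at a lower level. It stood at 1380.0, 734 and 1145 CPM in the pCMV6 libraries, at 358, 486 and 518 in the FASN libraries and at 519, 312 and 484 in the plain NCI-H1975 libraries. The lowest pCMV6 library was still above every FASN and plain library. The log2 difference was -1.26 ± 0.22 (SE) for FASN minus pCMV6 cells, 1.31 ± 0.22 for pCMV6 minus plain cells and 0.06 ± 0.23 for FASN minus plain cells. The last was positive in 9 of 13 alternative analyses.

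hsa_circ_3447, the most abundant of the 6, differed least. It stood at 3065, 2706 and 2342 CPM in the pCMV6 libraries, at 1788, 1611 and 1171 in the FASN libraries and at 1498, 2228 and 1532 in the plain NCI-H1975 libraries. The pCMV6 libraries were above all 6 of the others, though the lowest of them, at 2342, stood only just above plain replicate 2, and plain cells had an SD of 412. The log2 difference was -0.83 ± 0.18 (SE) for FASN minus pCMV6 cells and 0.63 ± 0.18 for pCMV6 minus plain cells. For FASN minus plain cells it was -0.20 ± 0.18, and negative in 13 of 13 alternative analyses. On summed reads the ratio of FASN to plain cells was 0.875, with a 95% interval of 0.771 to 0.994 for counting error. That interval leaves out the spread between libraries, and FASN and plain libraries overlapped.

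Counted over the 6, all FASN libraries lay below all pCMV6 libraries for 6 (background 5.57% of circRNAs tested) and below all plain NCI-H1975 libraries for 3 (background 5.53%). All pCMV6 libraries lay above all plain libraries for 4, hsa_circ_11450 and the 3 that were only high in pCMV6 cells (background 5.07%). The choice used these groups, so these counts carry no support. The FASN and plain differences share the FASN libraries, and the pCMV6 differences share the pCMV6 libraries.

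**Figure D2:**
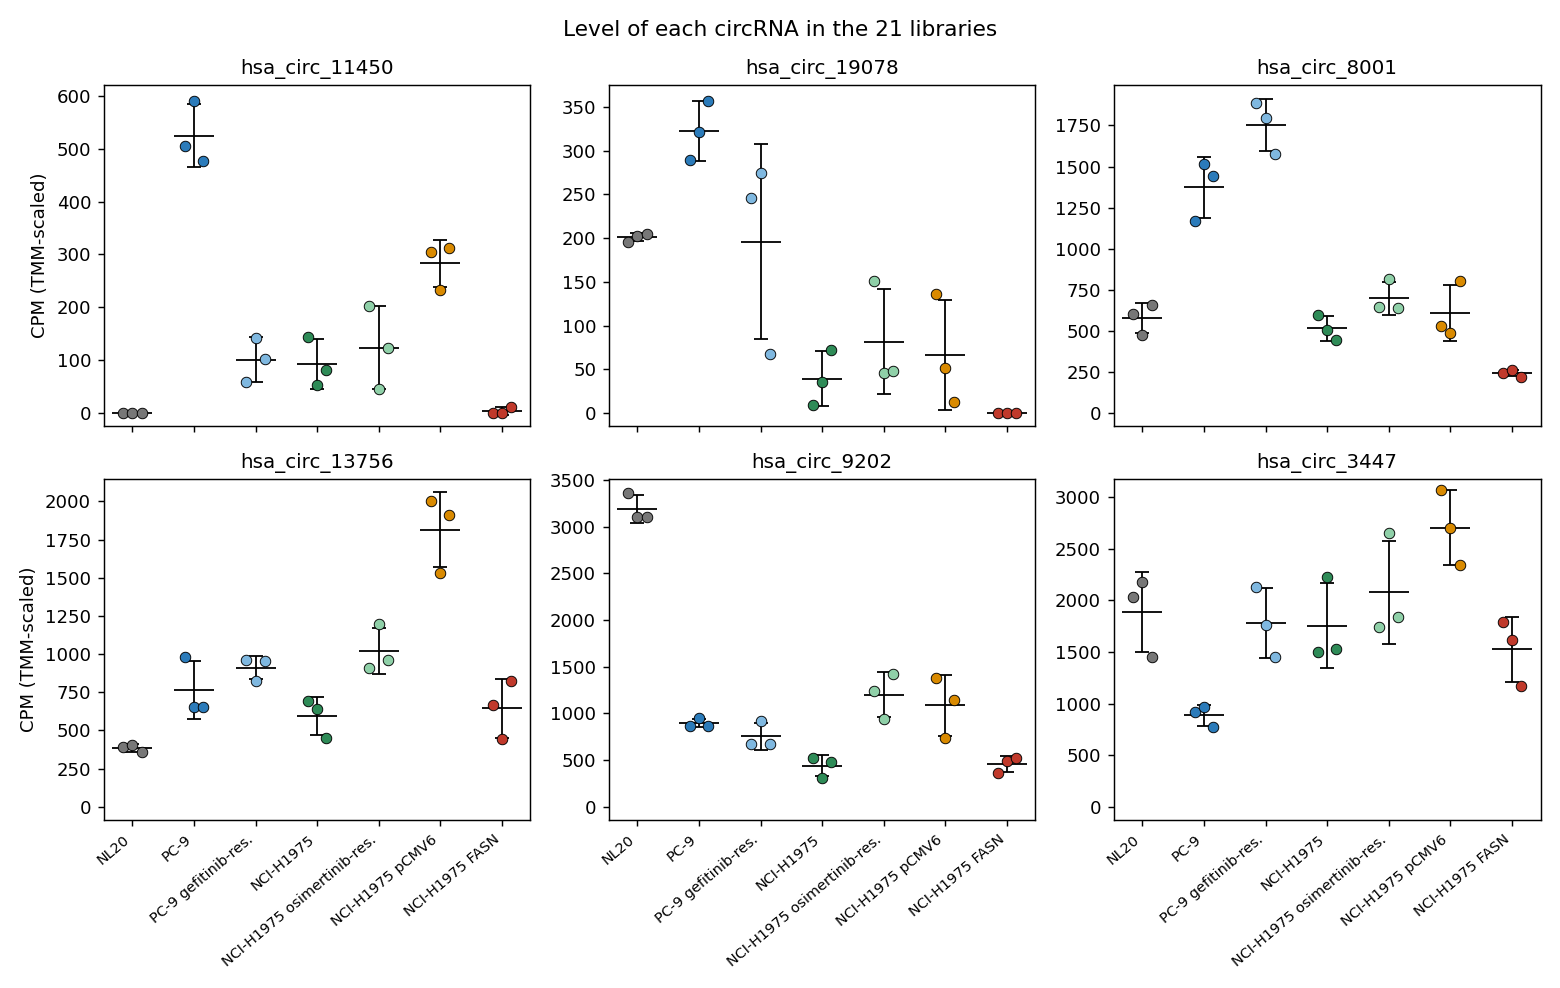
CPM (linear axis, TMM-scaled) of each circRNA in the 21 libraries, with 1 point per library, the group mean as a horizontal bar and the SD as the error bar (n = 3). In the upper row FASN libraries (red) lie at or near the bottom. In the lower row they overlap with the plain NCI-H1975 libraries (dark green) while pCMV6 libraries (orange) stand above both.

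The osimertinib-resistant cells of the same line did not share the low FASN level of the first class. hsa_circ_11450 stood at 202, 45.9 and 124 CPM in their libraries, with the lowest value in replicate 2, and hsa_circ_19078 at 151, 45.9 and 47.7 CPM. hsa_circ_8001 stood at 645, 815 and 639 CPM. Each of these values was above every FASN library, a comparison whose FASN side entered the choice.

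In the second class, osimertinib-resistant cells resembled pCMV6 cells for one circRNA. hsa_circ_9202 stood at 1241, 941 and 1420 CPM in the resistant libraries, within or just above the range of the pCMV6 libraries and above every plain library, with a log2 difference of 1.46 ± 0.22 (SE) from plain cells. hsa_circ_13756 stood at 908, 1194 and 963 CPM, above every plain and below every pCMV6 library. hsa_circ_3447 stood at 1745, 2652 and 1840 CPM and overlapped with plain cells. All resistant libraries were above all plain libraries for 3 of the 6, hsa_circ_13756, hsa_circ_9202 and hsa_circ_8001 (background 7.27%). Plain libraries entered the choice, so no test is given.

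Tests were made on the libraries that the choice did not use, which are those of NL20, PC-9, gefitinib-resistant PC-9 and osimertinib-resistant NCI-H1975. One edgeR model was fitted to all circRNAs, and p-values were adjusted over all 9175 by the method of Benjamini and Hochberg. Since a test finds more among abundant circRNAs, the share called is also given for the 1556 that were at least as abundant as the scarcest of the 6.

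The gefitinib-resistant cells differed from other PC-9 cells in 2 of the 6, in opposite directions. hsa_circ_11450 fell from 506, 591 and 476 CPM in the PC-9 libraries to 58.5, 142 and 102 in the resistant ones, a log2 difference of -2.36 ± 0.49 (SE) with an adjusted p of 0.000535 in edgeR's quasi-likelihood test. It was lower in 3 of 3 resistant libraries, on 27 reads against 170, and stayed called in 14 of 14 alternative analyses. hsa_circ_3447 rose from 918, 963 and 774 CPM to 2131, 1764 and 1450.1, a log2 difference of 1.00 ± 0.19 with an edgeR adjusted p of 5.95e-05. It was higher in 3 of 3 resistant libraries and called in 13 of 14 alternatives.

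The background in that comparison was 0.73% called higher and 0.621% called lower, or 3.47% and 2.96% among the 1556 abundant circRNAs. The other 4 did not pass the test. The median log2 difference of the 6 was 0.0028 and that of all tested circRNAs -0.0030. Those 4 gave 0.26 ± 0.23 for hsa_circ_13756, -0.25 ± 0.21 for hsa_circ_9202, 0.35 ± 0.22 for hsa_circ_8001 and -0.71 ± 0.50 for hsa_circ_19078, with adjusted p from 0.6 to 0.77 in edgeR's test. All resistant libraries were nonetheless above all PC-9 libraries for hsa_circ_8001 and below them for hsa_circ_19078. For hsa_circ_19078, 1 resistant library stood at 68.0 CPM beside 246 and 274 in the others, so its spread was wide. In the osimertinib-resistant line the values against plain cells were 0.44 ± 0.53 for hsa_circ_11450 and 0.24 ± 0.18 for hsa_circ_3447, and the difference between the lines was not tested.

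PC-9 and NL20 differed in 5 of the 6. For hsa_circ_11450, NL20 had none among 536377 reads, which allows up to 7.63 CPM. PC-9 had 170 reads and 524 ± 59.5 CPM (SD, n = 3). It was higher than NL20 (edgeR adjusted p = 2.07e-20), 70.1-fold with NL20 set to a floor of 3 counts. That fold takes the PC-9 reads as exact, and the 95% exact conditional interval for counting error started at 56.4. hsa_circ_8001 was higher in PC-9, at 1374 ± 184 against 578 ± 93.2 CPM (log2 1.25 ± 0.23 SE, edgeR adjusted p = 1.49e-06). hsa_circ_13756 was higher too, at 764 ± 188 against 385 ± 24.3 CPM (log2 0.98 ± 0.24, edgeR adjusted p = 0.000569).

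The other 2 calls were lower in PC-9. hsa_circ_9202 stood at 3362, 3107 and 3102 CPM in the NL20 libraries and 867, 948 and 869 in PC-9 (log2 -1.83 ± 0.20 SE, edgeR adjusted p = 4.18e-17). hsa_circ_3447 stood at 1885 ± 385 CPM in NL20 and 885 ± 98.9 in PC-9 (log2 -1.09 ± 0.19, edgeR adjusted p = 1.84e-07). hsa_circ_19078 did not pass the test, at 201 ± 4.45 CPM in NL20 and 322 ± 34.1 in PC-9 (log2 0.68 ± 0.49, edgeR adjusted p = 0.374), although its libraries did not overlap. The median log2 difference over the 6 was 0.83, and -0.05 over all tested circRNAs. So 3 were higher and 2 lower, beside a background of 9.02% and 7.75% of all tested circRNAs and 21.3% and 19.3% of the abundant ones.

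Osimertinib-resistant NCI-H1975 cells differed from NL20 in 3 of the 6. hsa_circ_11450 was higher on 37 reads against none (edgeR adjusted p = 1.3e-08), 16.7-fold with NL20 set to a floor of 3 counts. The 95% exact conditional interval for counting error started at 12.9. hsa_circ_13756 was higher by 1.40 ± 0.23 (SE) on the log2 scale (edgeR adjusted p = 1.55e-07). hsa_circ_9202 was lower, with a log2 difference of -1.41 ± 0.20 (edgeR adjusted p = 2.2e-10). The direction of these 3 was the same as between PC-9 and NL20, a comparison that shares the NL20 libraries. The median over the 6 was 0.21, and -0.04 over all tested circRNAs. The background was 7.51% higher and 7.35% lower, or 19.2% and 17.6% among the abundant circRNAs.

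The other 3 did not pass that test. hsa_circ_8001 gave 0.28 ± 0.24 (SE), hsa_circ_19078 -1.28 ± 0.55 and hsa_circ_3447 0.14 ± 0.18 on the log2 scale. For hsa_circ_19078 the edgeR adjusted p was 0.0988, and it was 0.0253 without osimertinib-resistant replicate 1, which held 15 of the 24 reads of its group, while the adjusted p ranged from 0.0253 to 0.837 over the 14 alternatives.

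Against PC-9, the same resistant cells differed in 4 of the 6, and all 3 circRNAs of the first class were lower. hsa_circ_11450 had a log2 difference of -2.06 ± 0.47 (SE, edgeR adjusted p = 0.000255), hsa_circ_19078 one of -1.96 ± 0.54 (edgeR adjusted p = 0.00372) and hsa_circ_8001 one of -0.98 ± 0.23 (edgeR adjusted p = 0.000385). In each case the libraries did not overlap. hsa_circ_3447 was higher, by 1.22 ± 0.19 (edgeR adjusted p = 3.65e-09). The remaining circRNAs gave 0.42 ± 0.23 for hsa_circ_13756 and 0.42 ± 0.21 for hsa_circ_9202, with edgeR adjusted p of 0.193 and 0.141.

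For hsa_circ_9202 that difference passed the test without osimertinib-resistant replicate 2, at 0.61 on the log2 scale with an edgeR adjusted p of 0.0355, in a range of 0.0355 to 0.885 over the alternatives. The background of the comparison was 8.72% higher and 9.72% lower, or 21.2% and 21.8% among the abundant circRNAs. Beside it, 1 of the 6 was higher and 3 were lower, with a median log2 difference of -0.28 over the 6 and -0.05 over all tested circRNAs.

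**Figure D3:**
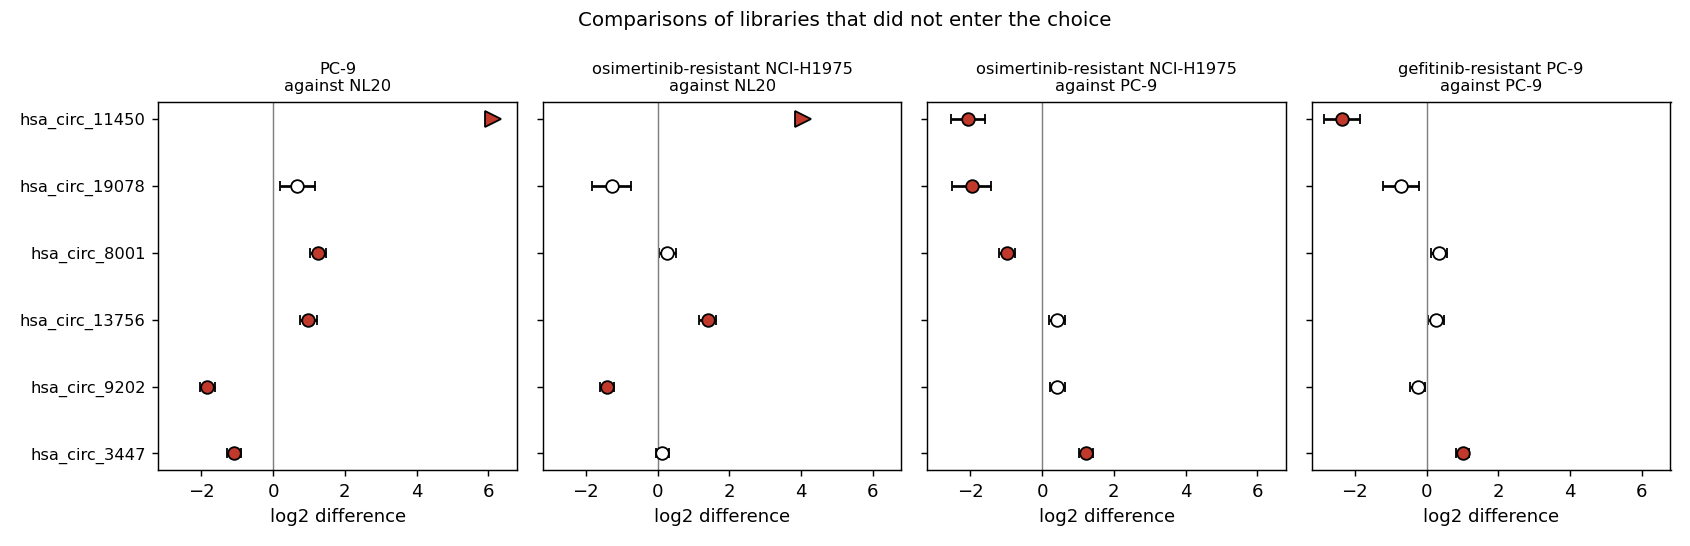
Log2 difference (first group minus second) of each circRNA in the 4 comparisons of libraries outside the choice, with the SE as the error bar, filled red where edgeR's adjusted p was under 0.05 and white where it was not. Triangles mark hsa_circ_11450 in the comparisons with NL20, where NL20 had no read of it, and are not confidence limits. This circRNA lies to the right in both comparisons with NL20 and to the left in the comparison of gefitinib resistance.

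Across all 7 groups the circRNAs fell into different orders. hsa_circ_11450 ran from PC-9 (524 CPM) through pCMV6 (283), osimertinib-resistant (124), gefitinib-resistant (101) and plain NCI-H1975 cells (92.7) to FASN cells (4.11) and NL20 (0), and the 3 groups between 92.7 and 124 overlapped. hsa_circ_8001 ran from gefitinib-resistant PC-9 (1752) and PC-9 (1374) to a middle of osimertinib-resistant (700), pCMV6 (609), NL20 (578) and plain cells (516), each overlapping with the next, and then to FASN cells (243). hsa_circ_19078 ran from PC-9 (322) to NL20 (201), gefitinib-resistant PC-9 (196), osimertinib-resistant (81.6), pCMV6 (66.8), plain (39.3) and FASN cells (0), and from NL20 to plain cells each group overlapped with the next.

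In the second class the top group differed as well. hsa_circ_13756 was highest in pCMV6 cells (1816), followed by osimertinib-resistant (1021), gefitinib-resistant (911), PC-9 (764), FASN (644), plain (595) and NL20 cells (385), and from osimertinib-resistant to plain cells each group overlapped with the next. hsa_circ_3447 was also highest in pCMV6 cells (2704) and lowest in PC-9 (885), the 5 groups between 1524 and 2079 overlapped, and the osimertinib-resistant cells at the top of them overlapped with pCMV6 cells too. hsa_circ_9202 was highest in NL20 (3190), whose libraries stood above all others. Then came osimertinib-resistant (1201), pCMV6 (1086), PC-9 (895) and gefitinib-resistant PC-9 cells (752), each of these overlapping with the next. FASN (454) and plain cells (438) came last and overlapped.

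Within the first class, Pearson's r of log2 CPM was 0.72 for hsa_circ_8001 with hsa_circ_19078, 0.58 for hsa_circ_8001 with hsa_circ_11450 and 0.36 for hsa_circ_11450 with hsa_circ_19078. Between the classes the highest value was 0.61, for hsa_circ_11450 with hsa_circ_13756. In the second class it was 0.38 for hsa_circ_13756 with hsa_circ_3447, 0.14 for hsa_circ_9202 with hsa_circ_3447 and -0.17 for hsa_circ_13756 with hsa_circ_9202. These values are a description over 21 libraries of 3 lines, which share line and group, and the low FASN values that made the choice enter them.

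For each circRNA the one other tested circRNA with the highest Pearson correlation of log2 CPM over the 21 libraries was found. The closest pairs were hsa_circ_8001 with hsa_circ_10916 (r = 0.90) and hsa_circ_19078 with hsa_circ_1931 (r = 0.88). Then came hsa_circ_9202 with hsa_circ_1613 (r = 0.87), hsa_circ_11450 with hsa_circ_2767 (r = 0.83), hsa_circ_3447 with hsa_circ_7333 (r = 0.82) and hsa_circ_13756 with hsa_circ_17034 (r = 0.77). As the best of all tested circRNAs these values are high by construction. hsa_circ_2767, with 55 reads in all, had none in FASN cells and its most, 25, in PC-9, and hsa_circ_7333 stood at 174 ± 31.1 CPM in pCMV6 and 64.0 ± 16.0 in FASN cells (SD, n = 3).

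**Figure D4:**
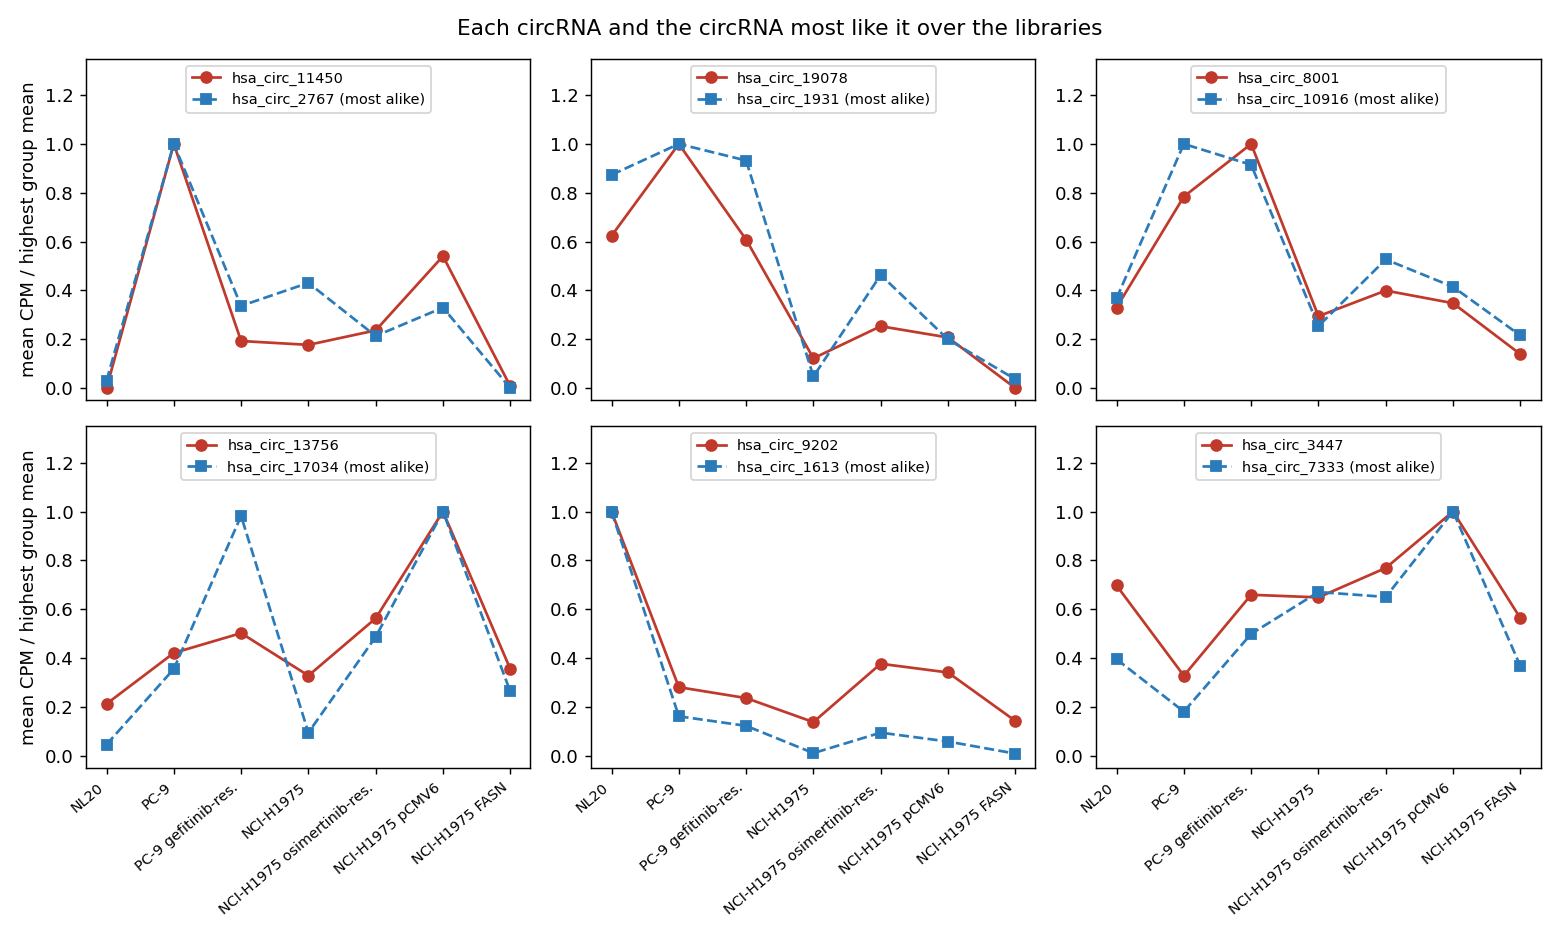
Mean CPM of each group divided by the highest group mean, for each of the 6 circRNAs (red circles) and for the circRNA most alike over the 21 libraries (blue squares); lines only join the groups. Both lines peak in the same group in every panel but that of hsa_circ_8001, where hsa_circ_10916 is highest in PC-9, and hsa_circ_17034 lies far above hsa_circ_13756 in gefitinib-resistant PC-9.

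Neighbours by number were mostly too scarce to compare, and 5 of the 12 circRNAs numbered directly before or after one of the 6 passed the filter. The nearest in pattern was hsa_circ_19079, which follows hsa_circ_19078 and correlated with it at r = 0.79 over the 21 libraries. It had no read in FASN cells either, and 12 in pCMV6, 8 in plain and 13 in osimertinib-resistant cells. Its PC-9 level was 275 ± 23.9 CPM (SD, n = 3). In gefitinib-resistant PC-9 it stood at 114 ± 25.2 CPM and in NL20 at 66.3 ± 2.99.

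The error of these values differed between circRNAs. In pCMV6 cells the coefficient of variation between libraries was 15.7% for hsa_circ_11450, below the 20.9% that counting alone gives at 23 reads per library. For hsa_circ_19078 it was 94.0% against 42.0%, and for hsa_circ_9202 30.1% against 10.6%. In FASN cells it was 8.14% against 21.2% for hsa_circ_8001, and 20.9% against 8.46% for hsa_circ_3447. Since PCR copies without molecular identifiers cannot be told from separate molecules, counting error is a lower limit of the true error.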

How the data were processed

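Circular RNA was sequenced from 21 libraries of cell lines. The authors deposited raw read counts, whole numbers with 1 row per circRNA and 1 column per library. Per the submitters' processing notes the build was hg38 and HISAT2 and DESeq2 were used, with no version or role named. The circRNA caller was not given in the sources used here, nor were its filters. The 6 circRNAs, and the groups and tests used, were chosen with earlier results of these data known. Groups were taken from the codes in the sample titles, and the transfection and cell line from the labels' characteristics. In R 4.3.3, edgeR 4.0.16 kept 9175 circRNAs (filterByExpr, minimum count 5, minimum total 15) and computed TMM factors. One quasi-likelihood model with 7 group means and robust spread was fitted to all libraries. P-values were adjusted by Benjamini and Hochberg and called under 0.05. For 99.7% of circRNAs the spread came almost wholly from the trend shared across circRNAs. The SE of a log2 difference is its size over the root of its F statistic. A group with no read was given a floor of 3 counts. The fold from it takes the reads of the other group as exact, so it is not a confidence limit. A prior count of 2 entered log2 CPM. The named circRNAs were the 6, the circRNA most correlated with each, and those numbered directly before and after it. The code was tested on simulated data with known changes. Alternatives were other filters, scalings, DESeq2 1.42.0, fewer libraries and a replicate block.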

Additional observations from a re-analysis of the deposited data

How the results depend on the processing

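Over 336 alternative analyses of the 24 tested differences, 328 kept their direction and their side of the threshold. In 3, hsa_circ_3447 in osimertinib-resistant NCI-H1975 cells against NL20, which never passed the test, turned negative, with log2 differences of -0.030 without the filter and -0.036 to 0.256 with a library left out. Without the filter, 3 calls were lost, those of hsa_circ_19078 against PC-9, hsa_circ_13756 in PC-9 against NL20 and hsa_circ_3447 in gefitinib-resistant PC-9 (edgeR adjusted p = 0.0695, 0.203 and 0.136), and 2 differences passed the test only without an osimertinib-resistant library. The unfiltered analysis computed scaling, spread and adjustment over more circRNAs, and which of these lowered the calls was not tested. It called 1 of the 6 in gefitinib-resistant PC-9 in place of 2. Over all circRNAs it called 529, 677, 679 and 16 in place of 1363, 1692, 1539 and 124. These counts are for osimertinib-resistant cells against NL20 and against PC-9, PC-9 against NL20 and gefitinib-resistant against other PC-9 cells. In the last comparison DESeq2 called 211, and leaving out any 1 of the 6 libraries gave 56 to 80, with both circRNAs of the 6 called each time. Scaling computed without the most abundant circRNA was an alternative chosen after seeing the data. The split gave 3 circRNAs low against both groups under every scaling, 2 at a stricter ratio and 2 without plain NCI-H1975 replicate 1. Same-numbered libraries did not deviate together (correlations of -0.0445 to 0.0339), so the numbers pair nothing here. With the replicate block 111 circRNAs were called in gefitinib-resistant PC-9, and it changed none of the tested calls among the 6. At these counts the difference of hsa_circ_19078, with 24 reads in osimertinib-resistant and 17 in pCMV6 cells, is the least certain of the 6.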
